A study of Homo sapiens with 6 samples.

Results

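The genes described here are those of the IGF-binding proteins, IGFBP1 to IGFBP7, and of the receptors IGF1R, IGF2R and INSR. They were taken by symbol from the probe sets that the platform annotation pairs with exactly 1 gene symbol. Of the 10 symbols, 9 were found among the 18376 named genes, on 10 probe sets, and IGF1R was the gene with more than 1. IGFBP6 shares its probe set with another symbol in the annotation and is not analysed here. The set was chosen by family membership with the log2 differences between these miR-34c and scramble arrays already known, so that comparison is given for its genes as a description with no test.

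The samples were 6 whole-transcript arrays of PC3, an androgen-independent human prostate cancer cell line that was first grown from a bone metastasis. The treated group of 3 samples expressed miR-34c ectopically, a microRNA whose family p53 induces, and the control group of 3 received a scramble mimic. The series' design text names miR-205 where the sample labels and the series title name miR-34c, and the sample labels were followed. All samples share 1 cell line, the time after delivery and the dose of the mimics are not in the labels, and nothing says whether separate cultures were used within a group. The p-values below therefore reflect the spread among these arrays alone, which may be technical, and precision is limited by how few there are.

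The insulin-like growth factors IGF1 and IGF2 are secreted peptides that drive growth and survival. IGF1R, a tyrosine kinase, and its close relative INSR, the insulin receptor, carry the signal through IRS adaptors to PI3K and AKT and through RAS to ERK, whereas IGF2R, the mannose 6-phosphate receptor, takes IGF2 to the lysosome for degradation. The IGF-binding proteins hold most IGF outside the cell, lengthen its life and limit its access to IGF1R, and proteases such as PAPPA release it by cutting them. IGFBP7 is a more distant relative that binds IGF weakly.

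The deposited values are on a log2 scale and lie around 0 for most probe sets, through a step that the sources used here do not give. Values of 1 gene can be compared between arrays, but levels of different genes cannot, and presence of a transcript cannot be judged. For this reason the epithelial character of the cells could not be checked against its defining markers. A difference below is the mean of the 3 miR-34c arrays minus that of the 3 scramble arrays, with its standard error (SE) from limma fitted over all named genes.

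The main change lay in the binding proteins and not evenly among them. IGFBP5 was at 0.339 of its scramble level with miR-34c, IGFBP4 at 0.771 and IGFBP3 at 0.805, whereas IGFBP2 was 1.18-fold higher and IGFBP1 differed by less than 0.01 on the log2 scale. The receptors IGF1R and INSR were each within 0.02 of 0. Over the 9 genes the median log2 difference was -0.11, or -0.25 over the 6 binding proteins and -0.0096 over the 3 receptors, against -0.034 over all genes tested. Of the 9 genes 7 were lower and 2 higher in the mean, while 57.7% of all other genes were lower. IGFBP1 and IGF1R, both close to 0, changed sign with centring of every array on its own median, which gave 5 lower and 4 higher.

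**Figure D1:**
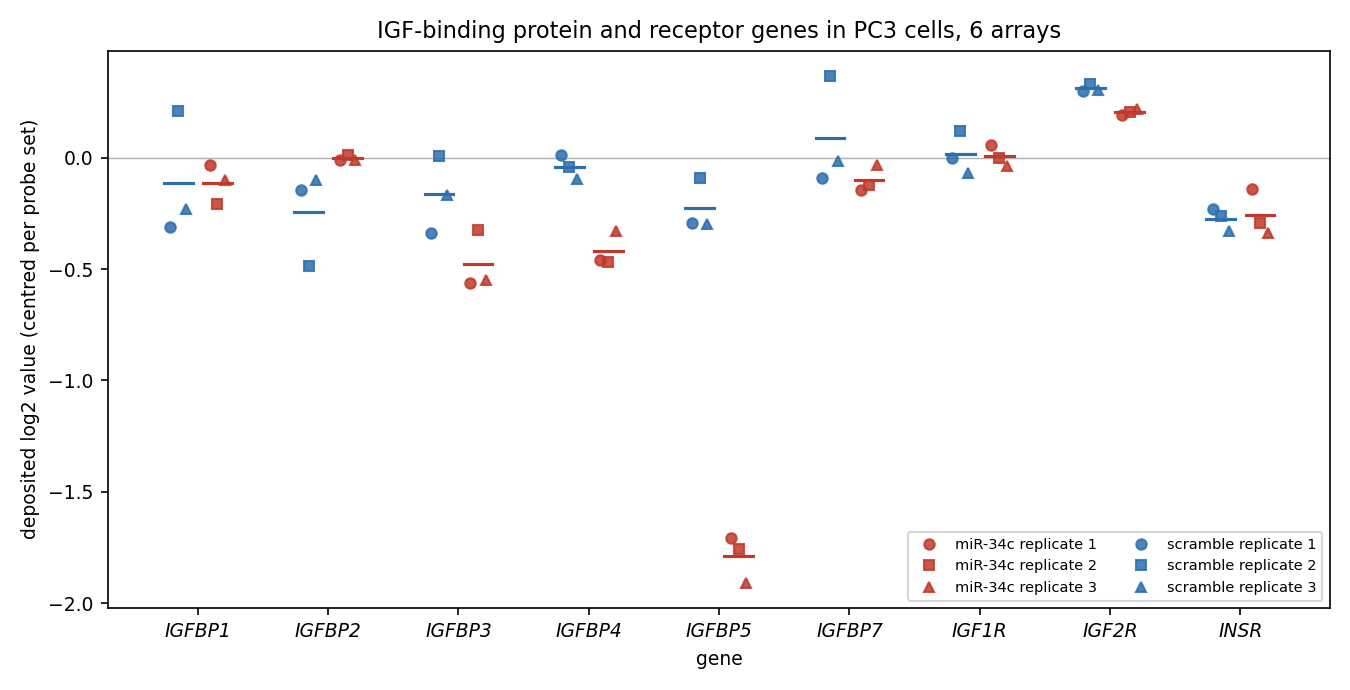
Deposited log2 values of the 9 genes on each of the 6 arrays, with scramble in blue and miR-34c in red. Each point is 1 array, its shape gives the replicate number, and the short line is the mean of 3 arrays. IGFBP5 stands between -1.91 and -1.71 on the miR-34c arrays and between -0.30 and -0.094 on the scramble arrays.

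IGFBP5, the most conserved of the binding proteins and one that also binds extracellular matrix, differed most. Its values were -1.71, -1.75 and -1.91 on miR-34c replicates 1 to 3 and -0.29, -0.094 and -0.30 on scramble replicates 1 to 3. All miR-34c arrays lay far below all scramble arrays, and the space between the groups was many times the spread within either of them (SD 0.10 with miR-34c and 0.12 with scramble, n = 3 each). The log2 difference was -1.56 ± 0.14 (SE, n = 3 per group), a fall that ranked 3 among the 18376 genes. Leaving out any 1 array gave values between -1.60 and -1.49.

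IGFBP4, which mainly holds IGF back from its receptor and is the classical substrate of PAPPA, was lower by a smaller step. Its values were -0.46, -0.47 and -0.33 on the miR-34c arrays and 0.013, -0.044 and -0.097 on the scramble arrays. The groups did not overlap, and the lowest scramble array stood well above the highest miR-34c array. The log2 difference was -0.38 ± 0.08 (SE, n = 3 per group), and leaving out any 1 array gave values between -0.42 and -0.35.

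IGFBP3, the main carrier of IGF in serum, had values of -0.56, -0.32 and -0.55 on the miR-34c arrays and -0.34, 0.0084 and -0.17 on the scramble arrays. The groups touched, since miR-34c replicate 2 lay just above scramble replicate 1. The log2 difference was -0.31 ± 0.11 (SE, n = 3 per group), -0.40 without scramble replicate 1 and -0.23 without scramble replicate 2. The differences of IGFBP4 and IGFBP3 lay within 1 SE of each other, so their order is not settled, whereas that of IGFBP5 was apart from both.

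IGFBP7, a secreted protein of the vessel wall and matrix, had values of -0.14, -0.12 and -0.034 on the miR-34c arrays and -0.093, 0.37 and -0.015 on the scramble arrays. Scramble replicate 2 was far above the other 5 arrays, which overlapped. The log2 difference of -0.19 ± 0.12 (SE, n = 3 per group) became -0.046 without that array.

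IGFBP1, which is regulated by insulin in liver, had values of -0.033, -0.21 and -0.10 on the miR-34c arrays and -0.31, 0.21 and -0.23 on the scramble arrays. The scramble arrays spanned all of the miR-34c values, with replicate 2 again the highest. The log2 difference was -0.0024 ± 0.13 (SE, n = 3 per group), and it turned to 0.16 without scramble replicate 2, when the groups no longer overlapped.

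IGFBP2, a binding protein with a preference for IGF2 and the only one of the 6 with a higher mean, had values of -0.0099, 0.0099 and -0.010 on the miR-34c arrays and -0.14, -0.49 and -0.099 on the scramble arrays. The miR-34c arrays were nearly equal and all above the scramble arrays, among which replicate 2 was far the lowest. The log2 difference was 0.24 ± 0.10 (SE, n = 3 per group) and was 0.12 without scramble replicate 2.

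The receptors moved little. IGF1R had values of 0.058, -0.000195 and -0.039 on the miR-34c arrays and 0.000196, 0.12 and -0.071 on the scramble arrays, so the groups overlapped throughout. The log2 difference was -0.0096 ± 0.082 (SE, n = 3 per group) on this probe set and -0.056 on the other IGF1R probe set, whose groups overlapped as well. INSR had values of -0.14, -0.30 and -0.34 on the miR-34c arrays and -0.23, -0.26 and -0.33 on the scramble arrays, and its log2 difference was 0.016 ± 0.079 (SE, n = 3 per group). The signs of IGF1R and INSR changed when single arrays were left out, within -0.053 to 0.042 for IGF1R and -0.042 to 0.056 for INSR, and that of IGF1R also with the centring named above (0.021) and with a further quantile normalization (0.027).

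IGF2R had the tightest values of the 9 genes. They were 0.19, 0.21 and 0.22 on the miR-34c arrays and 0.30, 0.33 and 0.31 on the scramble arrays, so that the groups did not overlap. The residual SD of 0.0156 was lower than in all but 0.103% of the genes, and the spread of IGFBP1 (0.208) was higher than in 90.5% of them. The log2 difference of IGF2R was -0.11 ± 0.08 (SE, n = 3 per group), where limma draws so small a spread towards that of other genes. Centring every array on its own median gave -0.074, and a further quantile normalization gave -0.022, after which the groups overlapped.

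**Figure D2:**
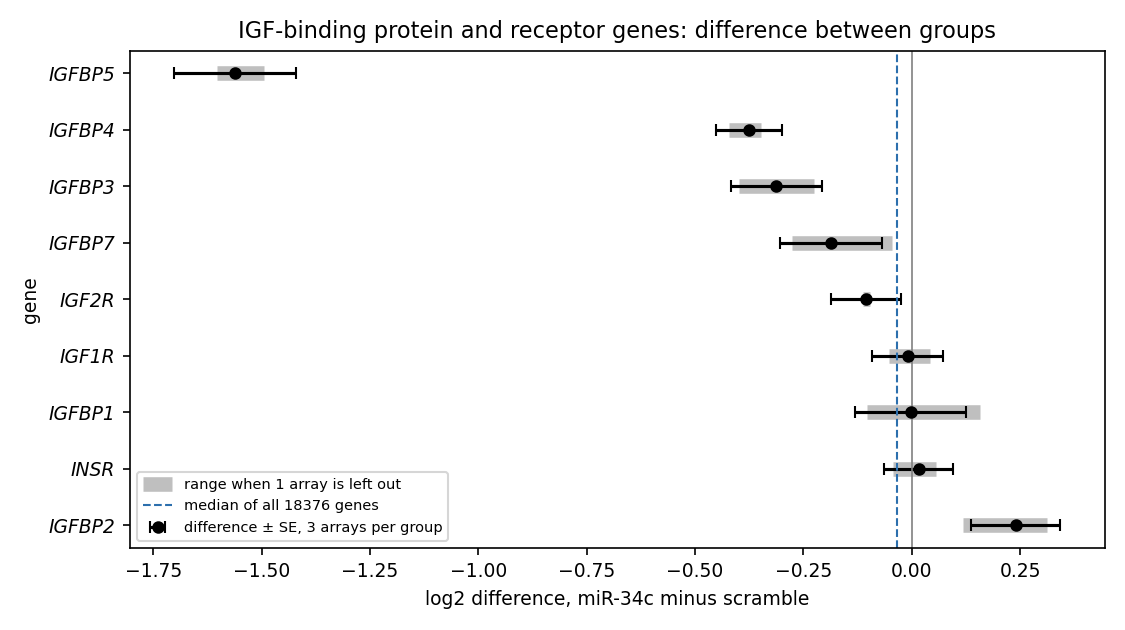
Log2 difference of miR-34c minus scramble for each of the 9 genes. Points are differences with SE bars (3 arrays per group), grey bars span the values found when 1 array at a time is left out, and the dashed line is the median of all genes (-0.034). IGFBP5 lies at -1.56, and the other genes between -0.38 and 0.24.

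In the fit over all genes, limma called 15.7% of the 18376 genes at an adjusted p (Benjamini-Hochberg) below 0.05, 8.01% lower and 7.67% higher. Of the 9 genes IGFBP5 and IGFBP4 passed, both lower, and 7 did not pass. IGFBP4, IGFBP5 and IGF2R had groups that did not overlap with the miR-34c arrays lower, and IGFBP2 with them higher, where 18.9% and 15.3% of all genes did so. These counts come from the comparison the genes were chosen with, and nothing is read from them. IGFBP3 passed as well without scramble replicate 1.

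Scramble replicate 2 stood out among the arrays for these genes. It was the highest of the 6 arrays for IGFBP1, IGFBP3, IGFBP5, IGFBP7, IGF1R and IGF2R, and the lowest for IGFBP2. Over all probe sets its median was 0.0615, while the medians of the other 5 arrays lay between -0.0303 and -0.000421, and 62.8% of its values were above 0 against 40.9% to 49.8%. Its part in the differences of IGFBP1, IGFBP2 and IGFBP7 is given by the values without it above. IGFBP5 (-1.49) and IGFBP4 (-0.38) were close to their full values without it.

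The promoters of IGFBP5 and IGFBP4, the members furthest below scramble, are shown because both carry a TATA motif close to the start of transcription. The sequences are RefSeq's, from GRCh38.p14, and run from 250 bases before to 50 after the start, with the TATA motif in capitals. The window of IGFBP5 is chr2:216695500-216695799 on the minus strand, and that of IGFBP4 is chr17:40443200-40443499 on the plus strand.
IGFBP5 promoter: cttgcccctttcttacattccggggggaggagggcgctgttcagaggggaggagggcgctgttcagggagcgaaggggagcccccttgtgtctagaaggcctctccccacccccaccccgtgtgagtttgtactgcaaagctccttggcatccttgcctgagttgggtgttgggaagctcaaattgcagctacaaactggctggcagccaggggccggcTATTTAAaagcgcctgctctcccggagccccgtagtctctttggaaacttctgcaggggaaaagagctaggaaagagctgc
IGFBP4 promoter: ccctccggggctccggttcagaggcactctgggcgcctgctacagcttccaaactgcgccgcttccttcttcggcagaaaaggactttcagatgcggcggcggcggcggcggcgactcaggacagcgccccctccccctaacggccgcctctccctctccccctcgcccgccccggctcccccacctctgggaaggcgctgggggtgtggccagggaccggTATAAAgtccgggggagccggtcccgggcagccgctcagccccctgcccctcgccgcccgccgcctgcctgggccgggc
The motif of IGFBP5 is TATTTAA, which begins 31 bases before the start, and that of IGFBP4 is TATAAA, which begins 29 bases before it. Searched on both strands, TATTTAA was in 4.52% and TATAAA in 11.5% of all 35116 RefSeq promoter windows of the same length. Of the 9 genes 7 had such a window, while IGFBP1 and IGFBP7 had none and could not be searched. None of the other 5 with a window held either motif in it (IGFBP2 has 3 such windows). Whether these motifs go with the differences was not tested.

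Most of these promoters were rich in G and C. Windows of IGF1R, IGF2R and INSR were 79.7%, 78.7% and 78.3% G or C, and those of IGFBP3 and IGFBP4 were 74.7% and 74.0%, against a median of 58.7% over all windows. The window of IGFBP5 was at 59.0%, and the 3 of IGFBP2 were at 55.3%, 70.0% and 56.7%. The GC box GGGCGG, a motif found in 45.0% of all windows, was in those of receptors and binding proteins alike. It occurred 2 times each in IGF1R, IGFBP3 and IGFBP4, 6 times in IGF2R, 4 times in INSR and 1 time in 2 of the 3 windows of IGFBP2, and was not in that of IGFBP5. The E-box CACGTG was in the window of IGF2R 3 times and in no other window of these genes (7.26% of all windows). The AP-1 motif TGANTCA was in none of their windows (7.71%). These are matches of letters in 1 window and say nothing about which factors bind there.

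IGFBP5 and IGFBP2 are next to each other among the measured coding genes of chromosome 2, on opposite strands. Of the pair, IGFBP5 was lower and IGFBP2 was not. TNP1, a sperm nuclear protein gene that is the measured coding gene on the other side of IGFBP5, had a log2 difference of 0.010 ± 0.11 (SE, n = 3 per group), with an adjusted p of 0.963 in limma. RPL37A, a ribosomal protein gene on the other side of IGFBP2, fell by 0.38 ± 0.10 (limma adjusted p = 0.0311). Ribosomal protein genes have many processed copies, so that value is uncertain. IGFBP1 and IGFBP3 are likewise next to each other on chromosome 7, and their differences (-0.0024 and -0.31) were not alike either.

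The genes whose pattern over the 6 arrays was most like that of IGFBP5 were RAB3B, MIRLET7A2, MMP1, CDC23 and ADAM19. Likeness was measured as the root mean square difference between 2 genes after each gene's mean over the 6 arrays was subtracted, and it was 0.15, 0.17, 0.20, 0.20 and 0.21 on the log2 scale. All 5 fell, by 1.18 to 1.36 on the log2 scale, less far than IGFBP5. With 2 groups of 3 arrays such likeness mostly follows the difference between groups. Their fall thus follows from how they were picked, and nothing is read from it. The 5 genes encode a vesicle GTPase, a let-7 microRNA, interstitial collagenase, a subunit of the anaphase-promoting complex and a membrane metalloproteinase.

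The genes most like IGFBP2 were GABARAP, KIAA0753, TRAPPC9, HDHD5-AS1 and CLIC4, with root mean square differences between 0.030 and 0.044. GABARAP acts in autophagy, and CLIC4 is a chloride channel protein. In all 5 scramble replicate 2 was the lowest array, as for IGFBP2. Their log2 differences lay between 0.17 and 0.30, and none passed. These traits follow from picking genes by likeness to IGFBP2, which did not pass either, so nothing is read from them.

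**Figure D3:**
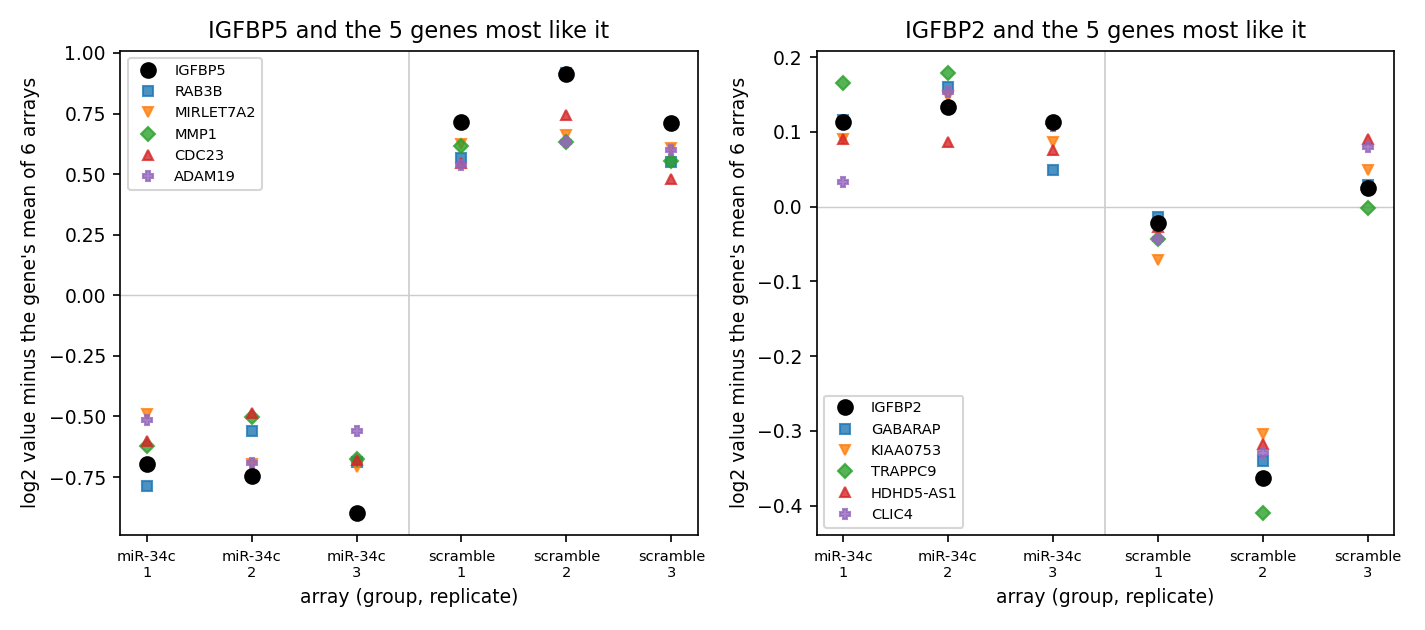
Log2 values minus each gene's mean over the 6 arrays, for IGFBP5 (left) and IGFBP2 (right) in black and the 5 genes most like each in colour. Each point is 1 array. On the left the groups are apart for every gene, while on the right scramble replicate 2 lies below all other arrays. The genes in colour were picked for this likeness.

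Of the other genes of the IGF pathway, drawn from lists of ligands, relatives of the binding proteins, proteases, receptor partners, adaptors and downstream signalling, 94 of 108 were measured. In limma 11 rose, 17 fell and 66 did not pass, so 29.8% passed beside 15.7% of all genes, with a median log2 difference of -0.049 beside -0.034. Only 2 of these changes, CCN2 and PDK4, were of at least 1.5-fold. The lists, here and below, were chosen with earlier results of these data known, so nothing is read from their shares. The count of 28 dropped to 18 when miR-34c replicate 2 or scramble replicate 1 was left out and to 16 when miR-34c replicate 3 was. Calls over all genes dropped in these settings too, from 2881 to 1683, 1970 and 1655 in the same order. The drop is therefore not particular to the pathway genes. Rises numbered 6 or 7 when miR-34c replicate 2 or 3 or scramble replicate 1 or 3 was left out, and falls 9 or 10 without miR-34c replicate 1 or 3 or scramble replicate 2.

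The ligands gave little to compare. IGF1 had a log2 difference of 0.0068 ± 0.13 (SE, n = 3 per group), with values of 0.096, -0.11 and 0.067 on the miR-34c arrays and -0.23, -0.019 and 0.28 on the scramble arrays, and did not pass (limma adjusted p = 0.978). Its sign turned with single arrays, from -0.11 without scramble replicate 1 to 0.14 without scramble replicate 3. IGF2 and INS share a probe set in the annotation and are not analysed here.

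Among the carrier IGFALS and 13 proteins with an IGFBP-like domain, 2 rose and 1 fell, so 21.4% passed beside 15.7% of all genes. CCN2, a matrix protein also known as connective tissue growth factor, had values of 0.41, 0.45 and 0.49 on the miR-34c arrays and -0.42, -0.22 and -0.49 on the scramble arrays, and was 1.77-fold higher (limma adjusted p = 0.000353). CCN1, its close relative, was 1.30-fold higher (limma adjusted p = 0.00714). HTRA1, a secreted serine protease that can cut IGFBP5, fell to 0.735 of the scramble level (limma adjusted p = 0.00658). These 3 calls held when any 1 array was left out, and without miR-34c replicate 2 there were 2 falls. The other 11, IGFALS among them (log2 difference 0.083), did not pass.

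Of 9 proteases of the binding proteins and their inhibitors 2 rose and 2 fell, so 44.4% passed beside 15.7% of all genes. PAPPA, the metalloproteinase that cuts IGFBP4 and IGFBP5, had a log2 difference of -0.087 ± 0.11 (SE, n = 3 per group) and did not pass (limma adjusted p = 0.663). STC2, a stanniocalcin that inhibits PAPPA, was 1.31-fold higher (limma adjusted p = 0.00759). PLAU, the urokinase that activates plasminogen, was 1.46-fold higher (limma adjusted p = 0.00214). ADAM12, a metalloproteinase that can cut IGFBP3 and IGFBP5, fell to 0.696 of the scramble level (limma adjusted p = 0.00806), and PRSS3, a trypsin whose value is uncertain because its gene has close copies, fell to 0.723 of it (limma adjusted p = 0.00938). Without scramble replicate 2 the rises numbered 3.

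Among 11 related receptors, partners of receptor traffic and IGF2BP proteins 1 rose and 2 fell, so 27.3% passed beside 15.7% of all genes. Each of these calls was lost in at least 1 set of 5 arrays. IGF2BP2, which binds IGF2 mRNA, fell to 0.766 of the scramble level (limma adjusted p = 0.0108), a call that ended when miR-34c replicate 3 was left out (0.0563). SORL1, a sorting receptor, fell to 0.755 of it (limma adjusted p = 0.0274) and, of the sets of 5 arrays, passed only in that without scramble replicate 1 (0.0593 to 0.0975 in the others). PTPN1, the phosphatase of the insulin receptor, was 1.21-fold higher (limma adjusted p = 0.0494) and did not pass in any set of 5 arrays (0.0517 to 0.193). The falls numbered 0 without miR-34c replicate 3, and 1 when miR-34c replicate 1 or 2 or scramble replicate 2 or 3 was left out.

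Of 12 measured adaptors below the receptors 2 fell and none rose (median log2 difference -0.14), so 16.7% passed beside 15.7% of all genes. The counts held when single arrays were left out. IRS1, the adaptor that links IGF1R to PI3K, had values of -0.40, -0.47 and -0.27 on the miR-34c arrays and 0.16, 0.12 and 0.083 on the scramble arrays. All miR-34c arrays were below all scramble arrays, and IRS1 fell to 0.706 of the scramble level (limma adjusted p = 0.00263). SOS2, an exchange factor that activates RAS, fell to 0.746 of it (limma adjusted p = 0.00499). IRS2 had a log2 difference of 0.16 ± 0.11 (SE, n = 3 per group) and did not pass (limma adjusted p = 0.388). It was 0.28 without scramble replicate 2 (limma adjusted p = 0.0516), and 0.093 and 0.096 without scramble replicates 1 and 3.

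Of 26 genes of PI3K, AKT and mTOR 2 rose and 6 fell, so 30.8% passed beside 15.7% of all genes. PIK3R1, the regulatory subunit p85 alpha of PI3K, had values of -0.87, -0.70 and -0.85 on the miR-34c arrays and -0.37, -0.26 and -0.16 on the scramble arrays, and fell to 0.687 of the scramble level (limma adjusted p = 0.00379). EIF4EBP2, a repressor of translation that mTOR inhibits, fell to 0.768 of it (limma adjusted p = 0.0116). PIK3CB, a catalytic subunit of PI3K, fell to 0.752 (limma adjusted p = 0.0314) and passed without scramble replicate 1 alone among the sets of 5 arrays (0.0523 to 0.101 in the others). TSC1, a brake on mTOR, was 1.43-fold higher (limma adjusted p = 0.0162) but the call ended when miR-34c replicate 2 (0.0602) or either of scramble replicates 1 and 3 (0.0604 and 0.0584) was left out. AKT1 had a log2 difference of 0.092, 0.049 without miR-34c replicate 2 and 0.15 with a further quantile normalization, and did not pass (limma adjusted p = 0.508). Without single arrays the falls numbered between 2 (either of miR-34c replicates 1 and 3, or scramble replicate 2) and 5 (scramble replicate 3). They numbered 3 without miR-34c replicate 2 or scramble replicate 1. The rises numbered 0 without miR-34c replicate 2 or either of scramble replicates 1 and 3, and 1 without miR-34c replicate 1 or 3.

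In the RAS and ERK branch 2 of 6 measured genes fell and 1 rose, so 50% passed beside 15.7% of all genes. RRAS, a RAS-related GTPase, fell to 0.696 of its scramble level (limma adjusted p = 0.00184), and ARAF, a RAF kinase, to 0.726 (0.00418). MAPK3, the kinase ERK1, was 1.28-fold higher (limma adjusted p = 0.0136) but the call ended when either of miR-34c replicates 2 and 3 (0.0539 and 0.0542) or scramble replicate 1 (0.0542) was left out.

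FOXO factors and genes they control went both ways, with 3 of 15 risen and 2 fallen, so 33.3% passed beside 15.7% of all genes. PDK4, a kinase that shuts pyruvate out of oxidation, had values of 0.76, 0.88 and 0.84 on the miR-34c arrays and 0.098, -0.10 and -0.098 on the scramble arrays, and was 1.82-fold higher (limma adjusted p = 0.000455). BCL2L11, which encodes the proapoptotic protein BIM, was 1.36-fold higher (limma adjusted p = 0.0106). BCL6, a transcriptional repressor, was 1.23-fold higher (limma adjusted p = 0.0312) but the call ended when either of miR-34c replicates 2 and 3 (0.0951 and 0.129) or of scramble replicates 1 and 3 (0.072 and 0.0807) was left out. CCNG2, an atypical cyclin, fell to 0.830 of the scramble level (limma adjusted p = 0.0427) and did not pass in any set of 5 arrays (0.0597 to 0.144). FOXO1 had a log2 difference of 0.086, or 0.14 with a further quantile normalization, and did not pass (limma adjusted p = 0.490). The falls numbered 1 without scramble replicate 3 and 0 without any other array, and the rises 2 without miR-34c replicate 2 or 3 or scramble replicate 1 or 3.

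**Figure D4:**
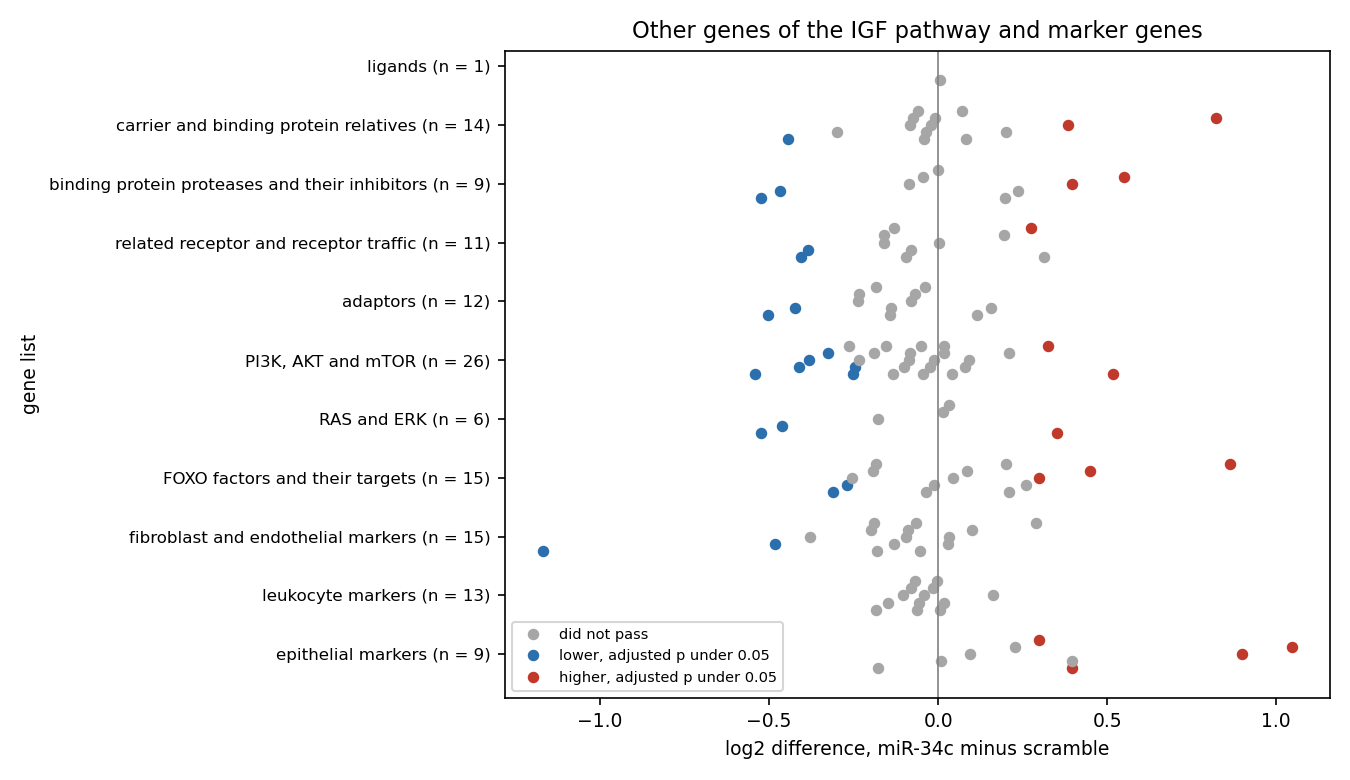
Log2 difference of miR-34c minus scramble for each measured gene of the IGF pathway lists and of 3 marker lists, 1 point per gene, with the number measured beside the name. Red and blue points passed an adjusted p under 0.05 in limma, and vertical offsets within a list only keep points apart. Calls lie on either side of 0 in most pathway lists. The 2 adaptors that passed are lower, and are 16.7% of that list beside 15.7% of all genes.

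IGF-binding proteins are also made by stromal and endothelial cells, and markers of other cell types were read in the same arrays. Of 15 fibroblast and endothelial markers 2 fell and none rose, so 13.3% passed beside 15.7% of all genes. There were 3 falls when miR-34c replicate 1 or scramble replicate 2 was left out, and 1 rose with the replicate block and with array weights (3 fell with the latter). PECAM1, an endothelial adhesion protein, fell to 0.444 of the scramble level (limma adjusted p = 0.00171). Its log2 difference of -1.17 comes from 1 of several probe sets, and was -0.74 with the mean of them (limma adjusted p = 0.00492). PDGFRA, a receptor of platelet-derived growth factor, fell to 0.716 of its scramble level (limma adjusted p = 0.00385). The mean of the list lay between -0.075 and -0.029 on the miR-34c arrays and between 0.085 and 0.15 on the scramble arrays. Of the defining markers PECAM1 passed, as given above, while COL1A1, COL3A1, DCN and VWF did not. Their log2 differences were -0.053, -0.19, -0.18 and 0.030 in that order. ACTA2, smooth muscle actin, had all miR-34c arrays above all scramble arrays and a log2 difference of 0.29 but did not pass (limma adjusted p = 0.0791). The log2 difference of CDH5, an endothelial cadherin, was 0.10. POSTN was lower by 0.38 in the mean without passing (limma adjusted p = 0.0765). PDGFRB, at -0.20, did not pass but had all miR-34c arrays below all scramble arrays. ACTA2, CDH5, POSTN and PDGFRB are named here after their values were seen. The median log2 difference of the list was -0.096. Whether any marker is absent cannot be read from values that lie around 0, and the part of these markers in the difference of IGFBP5 was not tested. All arrays are of the PC3 line, so the markers are given as genes of this culture, not as shares of other cell types.

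None of 13 leukocyte markers passed in limma, and 0 had an unadjusted p under 0.05. The mean of the leukocyte list lay between -0.080 and -0.043 with miR-34c and between -0.083 and 0.023 with scramble. Of 9 epithelial markers 4 rose and none fell, so 44.4% passed beside 15.7% of all genes. KRT7, keratin 7, was 2.07-fold and DSP, desmoplakin, 1.86-fold higher (limma adjusted p = 0.000269 and 0.000312). CDH1, E-cadherin, was 1.32-fold and KRT8, keratin 8, 1.23-fold higher (limma adjusted p = 0.0255 and 0.0377), both likewise named after their values were seen. Of the 5 that did not pass, named here after their values were seen, KRT18 and EPCAM had log2 differences of 0.40 and 0.23, CLDN7 and KRT19 of 0.094 and 0.0098, and CLDN4 of -0.18 with all miR-34c arrays below all scramble arrays. The epithelial rises numbered 3 without miR-34c replicate 1 or 2 or scramble replicate 1 or 2, and 2 without miR-34c replicate 3 or scramble replicate 3.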

How the data were processed

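Total RNA of PC3 cells (100 ng per sample) was labelled for whole-transcript arrays, per the labels' protocols. The authors deposited log2 values made by RMA in Affymetrix Expression Console, per the submitters' processing notes; versions are not given in the sources used here. RMA corrects background, normalizes by quantiles and summarises probes. The deposited log2 values lie around 0 through a step not given there; a reference common to the arrays, if one was subtracted, cancels between groups.

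Of 28868 probe sets, 19309 have 1 gene symbol, 1752 several and 7807 none. For the 685 genes with several probe sets the one with the highest mean was used, a choice that values lying around 0 make arbitrary. Limma (version 3.58.1, R 4.3.3) was fitted to all 18376 genes with group as the only term and a variance trend, and p-values were adjusted by Benjamini-Hochberg, called under 0.05. It was checked first on simulated arrays.

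The members and gene lists were chosen with earlier results of these data known. Named are all members, up to 4 called genes with the smallest adjusted p of each pathway list (2 of each marker list), IGF1, IRS1, IRS2, AKT1 and FOXO1 always, IGF2 where measured, the 5 genes most like the members of largest rise and fall, and those members' neighbours. A further gene of that rule is not reported here. The mature sequence of miR-34c is not shown. Alternatives were a replicate block, other variance priors, re-centring, quantile normalization, array weights, other uses of probe sets and leaving out each array.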

Additional observations from a re-analysis of the deposited data

How the results depend on the processing

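IGFBP5 and IGFBP4 passed in limma under all 14 alternative settings, and IGFBP3 joined them with the replicate block, with quantile normalization again and without scramble replicate 1, so 2 or 3 members were called. The log2 difference of IGFBP5 was -1.80 with quantile normalization again, and that of IGF2R was -0.022 with it and -0.074 with each array centred on its median. The median of all genes moved from -0.034 to -0.0031 with that centring, under which 1830 genes were called higher and 1418 lower, in place of 1409 and 1472; quantile normalization again gave 1876 and 1468. When 1 array was left out, genes called numbered 1655 to 2652 (841 to 1572 higher, 758 to 1373 lower). Pathway genes called then numbered 16 to 22 (6 to 12 higher, 9 to 14 lower). Members whose groups did not overlap numbered 3 to 5 lower and 1 or 2 higher. Groups of fewer arrays separate more easily, and the share of all genes was not counted there, so nothing is read from these member counts. Only 2 of the 28 pathway genes called were also at least 1.5-fold changed. Of the 31 pathway and marker genes named by the rule above, 23 kept their side of the threshold under all 14 settings. The other 8 (IGF2BP2, SORL1, PTPN1, TSC1, PIK3CB, MAPK3, BCL6 and CCNG2) lost it under at least 1. Whether the same replicate numbers mark a shared culture or day is not in the labels. Deviations of same-numbered arrays from their group means correlated at -0.00507, 0.118 and -0.0852 over all genes. Not every array correlated best with its own number. With 3 arrays per group the deviations within a group are tied to each other, so these values cannot settle it. With the replicate block 2675 genes were called, and 24 pathway genes. BCL6 did not pass with it (limma adjusted p = 0.0559), and no other of these 31 genes changed its call. The causes of these shifts were not tested. Signal over background is unknown, so probe sets near the detection limit could not be set apart.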

Other observations

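IGFBP3 and IGFBP4 each have a tensin gene as the next measured coding gene, named here after their values were seen. TNS4, a tensin of focal adhesions beside IGFBP4, rose by 0.49 ± 0.12 on the log2 scale (SE, n = 3 per group, limma adjusted p = 0.0198), and TNS3 beside IGFBP3 had a log2 difference of 0.24 ± 0.08 (limma adjusted p = 0.0766). TOP2A, topoisomerase II alpha and the neighbour of IGFBP4 on the other side, fell by 0.73 ± 0.07 (limma adjusted p = 0.000199). IGFBP4 therefore lies between a gene that fell further than it and a gene that rose.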
